A study of Mus musculus with 12 samples.

Results

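Matricellular proteins are secreted into the matrix around cells and act there mainly as signals and organisers, by binding collagens, growth factors and cell surface receptors, rather than as load-bearing fibres. Genes of this kind were described in M2-10B4 cells: Postn (periostin) and Tgfbi, whose proteins share the fasciclin fold and bind integrins and collagen; Tnc (tenascin-C); the SPARC family genes Sparc, Sparcl1, Smoc1 and Smoc2; and the thrombospondin genes Thbs1 and Thbs2. They were taken by gene symbol from the deposited tables, where all 9 were listed among 12028 genes. In bone and marrow, SPARC is a major non-collagen protein of mineralised matrix, periostin marks the periosteum and other loaded connective tissue, and thrombospondin-1 can release active TGF-beta from its latent form.

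M2-10B4 is an established stromal cell line, a single clone from the bone marrow of a C57BL/6J X C3H/HeJ mouse. RNA sequencing covered 4 groups of 3 biological replicates, all harvested on day 9. ADM+DHT cells had adipogenic medium (10% charcoal-stripped serum with 2 µg/mL insulin, 1 µM of the glucocorticoid dexamethasone and 2 µM rosiglitazone, an activator of the fat cell receptor PPAR gamma) and 10 nM dihydrotestosterone (DHT), a potent androgen. ADM cells had the adipogenic medium alone, DHT cells had 10 nM DHT in regular medium, and control cells had regular medium alone. The make-up of the regular medium is not given in the sources used here, so a medium difference covers everything that differed between the media.

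The values are FPKM, fragments scaled by transcript length and by the library's total, so levels can be set against each other between genes. Read counts were not given and the depth is unknown. FPKM over the 11582 genes with values in all 12 libraries summed to 240492 to 262738 per library, and 13 mitochondrially encoded genes took 13.3% to 14.0% of that sum in ADM+DHT, 16.4% to 17.2% in ADM, 9.63% to 10.5% in DHT and 9.34% to 9.97% in control. Of 10 stromal markers, 8 (all but Thy1 and Lepr, not analysed here) summed to 2470 to 2510 FPKM in ADM+DHT, 1780 to 1850 in ADM, 2980 to 3100 in DHT and 2840 to 2920 in control. The stromal markers did not move together. Col1a1 (759 FPKM in ADM against 1480 in control), Col1a2, Col3a1 and Pdgfrb averaged lower in ADM than in control. Pdgfra (50.9 against 25.8), Cxcl12 (106 against 54.5), Vcam1 (40 against 20.6) and Kitl (96.2 against 26.7) averaged higher in ADM. All 8 adipocyte markers were listed, with summed FPKM of 640 to 686 in ADM+DHT, 1860 to 1960 in ADM, 10.6 to 11.2 in DHT and 14.4 to 16.5 in control. The 6 smooth muscle markers summed to 336 to 372 FPKM in ADM+DHT, 234 to 309 in ADM, 789 to 873 in DHT and 853 to 872 in control. Of these, Acta2 (201 FPKM in ADM against 727 in control), Tagln and Cnn1 averaged lower in ADM than in control. Lmod1 (29.6 against 12.7), Des and Myh11 averaged higher there. Of the markers of macrophages, endothelium and platelets, 3 of 8, 2 of 7 and 2 of 5 had values in all 12 libraries. These summed to at most 11.8 FPKM per type in a library, and the others were left out of the sums. The part of these shifts in the results that follow was not tested, and fewer cells of a type and less RNA per cell cannot be told apart in such bulk samples.

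Both DHT and dexamethasone act through steroid receptors that bind the same DNA element, so the bases before the start sites were searched for it. Of the 9 genes, 5 (Postn, Tnc, Sparc, Tgfbi and Thbs2) had 7 start-site windows of 250 bases in the RefSeq promoter table for GRCm38.p6. The 3 windows shown include that of Postn, the gene with the largest rise under DHT in regular medium. The others are those of the most abundant gene (Sparc) and of Thbs2. Thbs2 was lower with DHT and lower in the adipogenic medium as a whole, and no group had dexamethasone alone. Each window runs 5′ to 3′ on the gene's own strand and ends at the base before the RefSeq start site. The Sparc start site used lies 3103 bases inside the gene as the tables place it, and of the 2 Postn windows the one shown ends at a start site at -2 bases from the gene's start in the tables. Capitals mark the steroid receptor half-site AGAACA or the TATA motif TATAAA on either strand.

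Postn (chr3:54360857-54361106, plus strand): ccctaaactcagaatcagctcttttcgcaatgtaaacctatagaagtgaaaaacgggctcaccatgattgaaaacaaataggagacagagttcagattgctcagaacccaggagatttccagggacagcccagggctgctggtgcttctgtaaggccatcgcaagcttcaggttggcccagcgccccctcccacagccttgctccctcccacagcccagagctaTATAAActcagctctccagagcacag

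Sparc (chr11:55420081-55420330, minus strand): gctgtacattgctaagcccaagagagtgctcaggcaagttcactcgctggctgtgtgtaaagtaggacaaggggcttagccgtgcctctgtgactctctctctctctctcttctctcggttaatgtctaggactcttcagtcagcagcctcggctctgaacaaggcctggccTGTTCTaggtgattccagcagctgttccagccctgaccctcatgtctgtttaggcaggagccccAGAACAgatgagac

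Thbs2 (chr17:14694263-14694512, minus strand): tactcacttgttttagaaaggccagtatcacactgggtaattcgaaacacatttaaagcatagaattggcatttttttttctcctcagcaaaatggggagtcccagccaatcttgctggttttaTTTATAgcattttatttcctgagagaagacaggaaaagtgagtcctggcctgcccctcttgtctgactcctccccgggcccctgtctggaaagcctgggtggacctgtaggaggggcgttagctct

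The Sparc window held 2 half-sites and the other 6 windows held none, while 16.1% of all 32851 promoter windows of that length hold at least 1. The Postn window shown had TATAAA starting 26 bases before the start site and the other Postn window, whose start site lies at -1842 bases from the gene's start in the tables, had none. That motif, found in 12.4% of all windows, stood in 4 of the 7. The 2 Tnc windows overlap and hold the same site, so 1 site was counted for 2 of the 4. It lies at -126 and -205 bases from their start sites. The Thbs2 site lies at -126 bases from its start site, on the opposite strand. The full steroid element (AGAACA, any 3 bases, TGTTCT), the PPAR element (AGGTCA, any 1 base, AGGTCA), the AP-1 motif TGACTCA and the SMAD motif GTCTAGAC, found in 0.00913%, 0.0335%, 4.46% and 0.167% of all windows, were in none of the 7. The half-site is a part of the full element, and a match or its lack says nothing of binding.

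Adding DHT to regular medium changed all 9 genes, by limma on log2(FPKM + 1) over genes averaging at least 1 FPKM in a compared group, with p-values adjusted over all genes tested by the Benjamini-Hochberg method. Postn, Sparc, Sparcl1, Smoc1, Smoc2 and Thbs1 rose and Thbs2, Tnc and Tgfbi fell (adjusted p below 0.05), where 26.9% of the 10820 genes tested changed, 12.7% up and 14.1% down. A log2 difference of at least 1 was reached by 7 of the 9, against 2.14% of all genes tested. In adipogenic medium, ADM+DHT against ADM, 5 of the 8 genes that could be tested rose and 2 fell, beside 33.5% of 10823 genes called (17.2% up and 16.3% down), and 3 of the 8 passed a log2 difference of 1, against 3.03% of all. ADM against control gave 3 rises and 5 falls among the 9, where 61.6% of 11074 genes changed (28.3% up and 33.3% down), and 5 of the 9 passed a log2 difference of 1, against 13.1% of all. With DHT present in both media, ADM+DHT against DHT, 2 rose and 7 fell, where 50.0% of 10942 genes changed (23.3% up and 26.7% down), and 4 of the 9 passed a log2 difference of 1, against 6.54% of all. Their median difference was 0.54 in DHT minus control, 0.29 in ADM+DHT minus ADM, -0.17 in ADM minus control and -0.47 in ADM+DHT minus DHT, with medians of all genes tested between -0.03 and 0.01. In each of these comparisons the libraries of the groups did not overlap for any member tested, which also held for 43.4% of all genes in DHT against control, 48.3% in ADM+DHT against ADM, 67.6% in ADM against control and 59.6% in ADM+DHT against DHT. The other pairs gave the order of levels. ADM+DHT against control had 3 rises and 4 falls, where 60.0% of 10987 genes changed (29.0% up and 31.0% down), and ADM against DHT had 7 falls and 2 that did not pass, where 56.8% of 10981 genes changed (24.2% up and 32.6% down). The comparisons share libraries and are not independent of each other. The members were chosen with earlier results of these data known, so their shares beside those of all genes are a description and not a test.

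**Figure D1:**
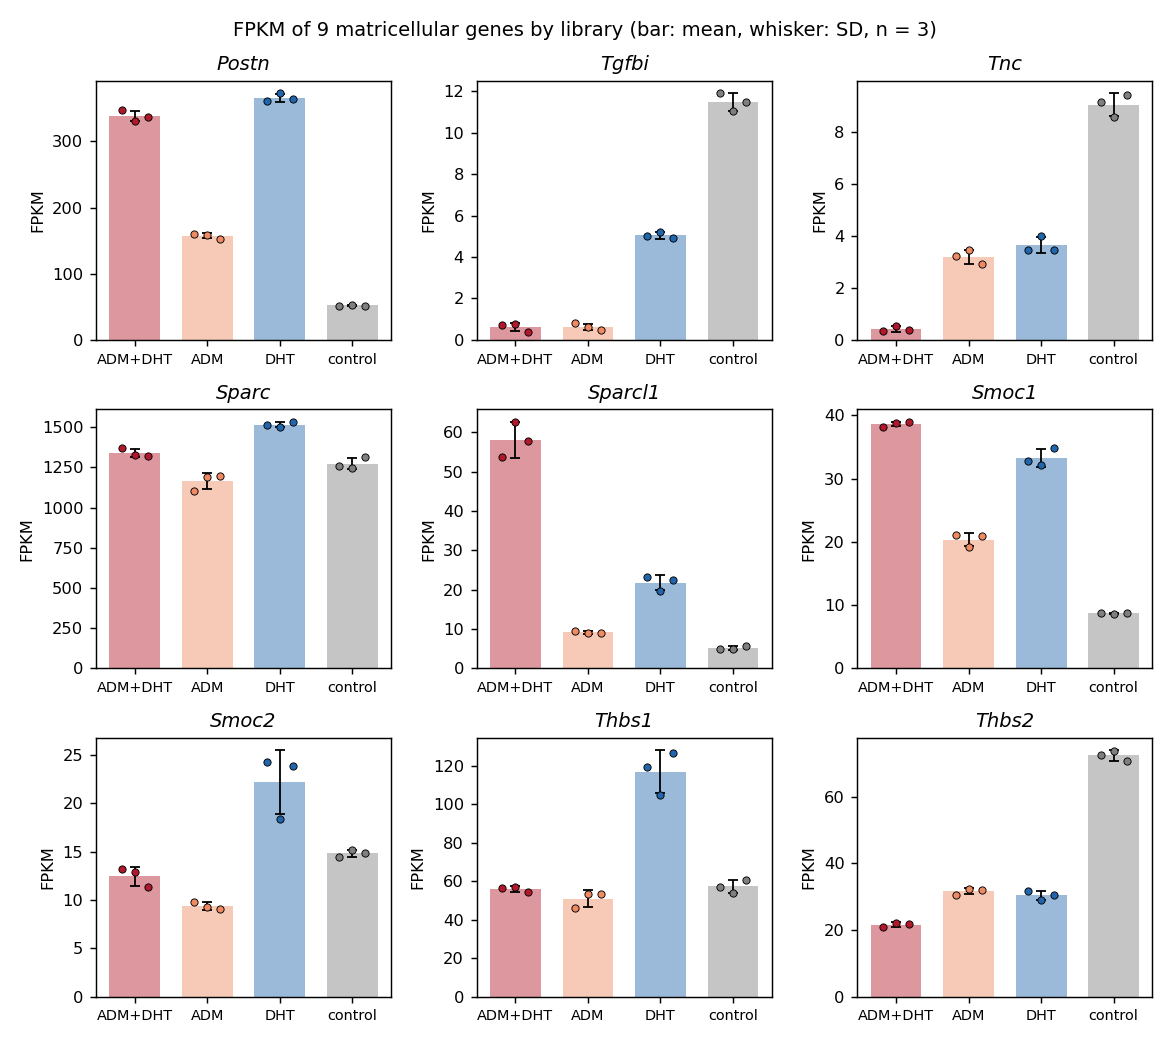
FPKM (y axis, linear from 0) of each gene in each library, with ADM+DHT, ADM, DHT and control from left to right; points are libraries, bars means and whiskers SD (n = 3 each). Postn, Sparcl1 and Smoc1 are lowest in control, while Thbs2, Tnc and Tgfbi are highest there.

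Periostin showed the largest rise of the members under DHT in regular medium. Postn (ENSMUSG00000027750.16, chromosome 3, 54361109 to 54391037, plus strand, GRCm38) measured 362, 373 and 364 FPKM in the DHT libraries and 51.4, 53.1 and 51.6 FPKM in the control libraries. Every DHT library lay far above every control library, and the means differed 7.03-fold, a log2(FPKM + 1) difference of 2.79 ± 0.032 (SE, adjusted p = 4.44e-08). In adipogenic medium it measured 347, 332 and 337 FPKM in ADM+DHT and 161, 158 and 153 FPKM in ADM. The DHT difference there was 1.10 ± 0.032 (adjusted p = 1.65e-06), or 2.15-fold. The adipogenic medium itself raised Postn 3.02-fold over control (1.58 ± 0.037, adjusted p = 6.68e-08).

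The order of Postn levels was thus DHT, ADM+DHT, ADM and control, and the first neighbours in it lay close together. ADM+DHT was below DHT by -0.11 ± 0.028 (adjusted p = 0.0137), with no overlap of libraries. That call ended without the variance trend (adjusted p = 0.0787) and without ADM+DHT replicate 2 (adjusted p = 0.0567), and quantile normalization turned the difference to 0.03. Of all 11582 genes, Postn ranked 60 from the top in ADM+DHT, 191 in ADM, 63 in DHT and 785 in control.

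Tgfbi, which encodes the TGF-beta-induced protein with the same fasciclin fold as periostin, was highest in control, where Postn was lowest. Tgfbi (ENSMUSG00000035493.10, chromosome 13, 56609523 to 56639562, plus strand) measured 0.793, 0.626 and 0.496 FPKM in ADM and 11.9, 11.0 and 11.5 FPKM in control, a difference of -2.93 ± 0.085 (adjusted p = 1.79e-07). In DHT it measured 5.02, 5.23 and 4.91 FPKM, below every control library, with a difference of -1.04 ± 0.057 from control (adjusted p = 2.56e-05). ADM+DHT libraries held 0.74, 0.767 and 0.403 FPKM and overlapped those of ADM. With both means under 1 FPKM the gene was not tested between them here, and the authors' deposited log2 difference was -0.005. ADM+DHT lay below DHT by -1.89 ± 0.103 (adjusted p = 8.19e-06), and by -2.85 when 0.1 in place of 1 was added to FPKM. The ratio of Postn to Tgfbi was 432 to 835 in ADM+DHT, 202 to 308 in ADM, 71.2 to 74.1 in DHT and 4.31 to 4.81 in control.

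Tenascin-C, a large glycoprotein of developing and injured tissue that loosens cell adhesion, was lower with DHT or in adipogenic medium, and lowest with both. Tnc (ENSMUSG00000028364.15, chromosome 4, 63959785 to 64047015, minus strand) measured 0.339, 0.546 and 0.389 FPKM in ADM+DHT and 3.22, 3.46 and 2.93 FPKM in ADM. The groups did not overlap, and the difference was -1.56 ± 0.091 (adjusted p = 2.22e-05). In regular medium it measured 3.47, 3.99 and 3.46 FPKM in DHT and 9.14, 8.56 and 9.43 FPKM in control, a difference of -1.12 ± 0.072 (adjusted p = 5.95e-05). The medium differences were -1.26 ± 0.073 for ADM minus control and -1.70 ± 0.088 for ADM+DHT minus DHT (adjusted p = 5.07e-06 and 6.6e-06). ADM and DHT libraries overlapped and did not differ by the test (adjusted p = 0.178). With 0.1 added to FPKM, the differences were -2.67 for ADM+DHT minus ADM and -2.85 for ADM+DHT minus DHT, since the added 1 exceeds the ADM+DHT level.

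Sparc was by far the most abundant of the 9 and kept within a narrow range. Its protein, also called osteonectin, binds collagen and calcium. Sparc (ENSMUSG00000018593.13, chromosome 11, 55394500 to 55423183, minus strand) measured 1514, 1499 and 1533 FPKM in DHT and 1256, 1248 and 1312 FPKM in control, a difference of 0.25 ± 0.032 (adjusted p = 0.00133). It measured 1369, 1329 and 1323 FPKM in ADM+DHT and 1105, 1191 and 1193 FPKM in ADM, a difference of 0.21 ± 0.037 (adjusted p = 0.00479). All DHT-treated libraries thus lay above the untreated libraries of the same medium. The medium differences were -0.18 ± 0.025 for ADM+DHT minus DHT (adjusted p = 0.000862) and -0.13 ± 0.043 for ADM minus control (adjusted p = 0.0326). The last call ended under median scaling (adjusted p = 0.0565), without the variance trend (0.0863), and without control replicate 1 or 3 or ADM replicate 1 or 2 (0.0508 to 0.115). Sparc ranked between 10 and 14 from the top of all genes in every group, and took 71.6% to 72.1% of the summed FPKM of the 9 genes in ADM+DHT, 79.7% to 80.9% in ADM, 71.5% to 71.9% in DHT and 84.5% to 84.9% in control. Postn took 17.9% to 18.3%, 10.4% to 11.6%, 17.0% to 17.9% and 3.34% to 3.6% of that sum in the same order of groups.

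Sparcl1, or hevin, the closest relative of Sparc and an adhesion-reducing protein, had the largest DHT rise of the members in adipogenic medium. Sparcl1 (ENSMUSG00000029309.7, chromosome 5, 104079111 to 104113733, minus strand) measured 53.7, 62.6 and 57.7 FPKM in ADM+DHT and 9.43, 9.06 and 8.86 FPKM in ADM. That is a 6.37-fold difference of means and a log2 difference of 2.54 ± 0.062 (adjusted p = 1e-06). In regular medium it measured 23.1, 19.5 and 22.4 FPKM in DHT and 4.86, 4.84 and 5.79 FPKM in control (1.88 ± 0.088, adjusted p = 1.41e-05). The medium also raised it, by 0.72 ± 0.077 in ADM over control (adjusted p = 0.000126) and by 1.38 ± 0.078 in ADM+DHT over DHT (adjusted p = 9.81e-06). No library of any group overlapped another group's, and ADM+DHT stood 11.2-fold above control (3.26 ± 0.081, adjusted p = 1.11e-07).

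Smoc1 and Smoc2 encode calcium-binding proteins with a SPARC-like domain, of which SMOC1 is known from frog embryos as an antagonist of BMP signals. Smoc1 (ENSMUSG00000021136.13, chromosome 12, 81026808 to 81186414, plus strand) measured 38.2, 38.7 and 38.9 FPKM in ADM+DHT, 21.01, 19.2 and 20.9 FPKM in ADM, 32.8, 32.2 and 34.8 FPKM in DHT and 8.82, 8.59 and 8.69 FPKM in control. These 4 groups were separate from each other. DHT raised it by 1.82 ± 0.048 in regular medium (adjusted p = 1.72e-06) and by 0.89 ± 0.046 in adipogenic medium (adjusted p = 1.32e-05), and the medium by 1.14 ± 0.054 without DHT (adjusted p = 1.71e-06) and by 0.21 ± 0.040 with it (adjusted p = 0.00421).

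Smoc2 (ENSMUSG00000023886.9, chromosome 17, 14279506 to 14404790, plus strand) shared the DHT rise of Smoc1 but was lower in adipogenic medium. It measured 13.2, 12.9 and 11.3 FPKM in ADM+DHT, 9.8, 9.33 and 9.04 FPKM in ADM, 24.3, 18.4 and 23.9 FPKM in DHT and 14.5, 15.2 and 14.9 FPKM in control. DHT replicate 2 lay below its fellows, yet above every control library. The DHT differences were 0.37 ± 0.069 in adipogenic medium (adjusted p = 0.00564) and 0.54 ± 0.101 in regular medium (adjusted p = 0.00784), and the medium differences were -0.61 ± 0.053 for ADM minus control (adjusted p = 4.02e-05) and -0.78 ± 0.111 for ADM+DHT minus DHT (adjusted p = 0.00101).

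Thrombospondin-1, which binds CD36 and CD47 on cells and activates latent TGF-beta, was highest in DHT. Thbs1 (ENSMUSG00000040152.8, chromosome 2, 118111876 to 118127133, plus strand) measured 119, 105 and 126 FPKM in DHT and 57.0, 54.1 and 60.8 FPKM in control, a difference of 1.01 ± 0.076 (adjusted p = 0.000124). In adipogenic medium it measured 56.6, 57.0 and 54.4 FPKM in ADM+DHT and 45.9, 53.3 and 53.6 FPKM in ADM. These values lay close together, and their difference of 0.14 ± 0.064 did not pass (adjusted p = 0.144), nor did ADM minus control (-0.17 ± 0.073, adjusted p = 0.0795) or ADM+DHT minus control (-0.03 ± 0.050, adjusted p = 0.616). ADM replicate 1 lay lowest, and without it Thbs1 differed by 0.07 in ADM+DHT minus ADM and by -0.10 in ADM minus control. Quantile normalization brought ADM minus control past the threshold (-0.24, adjusted p = 0.0159). ADM+DHT was below DHT by -1.04 ± 0.068 (adjusted p = 1.95e-05).

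Thrombospondin-2, a relative that does not activate TGF-beta, was highest in control. Thbs2 (ENSMUSG00000023885.8, chromosome 17, 14665500 to 14694262, minus strand) measured 31.7, 28.9 and 30.6 FPKM in DHT and 72.6, 73.8 and 70.7 FPKM in control, a difference of -1.23 ± 0.045 (adjusted p = 6.36e-06). It measured 20.8, 22.2 and 21.9 FPKM in ADM+DHT and 30.6, 32.4 and 32.1 FPKM in ADM, a difference of -0.53 ± 0.045 (adjusted p = 0.00014). ADM and DHT libraries overlapped (0.06 ± 0.048, adjusted p = 0.338), and each lay below control. The medium differences were -1.17 ± 0.041 for ADM minus control (adjusted p = 4.21e-07) and -0.47 ± 0.049 for ADM+DHT minus DHT (adjusted p = 0.000183).

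Within both pairs of close relatives the more abundant gene was another one in control than elsewhere. Per length, Thbs1 stood at 2.48 to 2.72 times the FPKM of Thbs2 in ADM+DHT, 1.5 to 1.67 times in ADM, 3.61 to 4.13 times in DHT and 0.733 to 0.86 times in control. The ratio of Smoc1 to Smoc2 was 2.9 to 3.44 in ADM+DHT, 2.06 to 2.31 in ADM, 1.35 to 1.75 in DHT and 0.567 to 0.61 in control. Sparcl1 stayed far below Sparc everywhere, at a ratio of 0.0393 to 0.0471 in ADM+DHT, 0.00742 to 0.00853 in ADM, 0.013 to 0.0153 in DHT and 0.00387 to 0.00441 in control. For all 3 ratios the libraries of the 4 groups did not overlap; the ratios themselves were not put to a test.

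**Figure D2:**
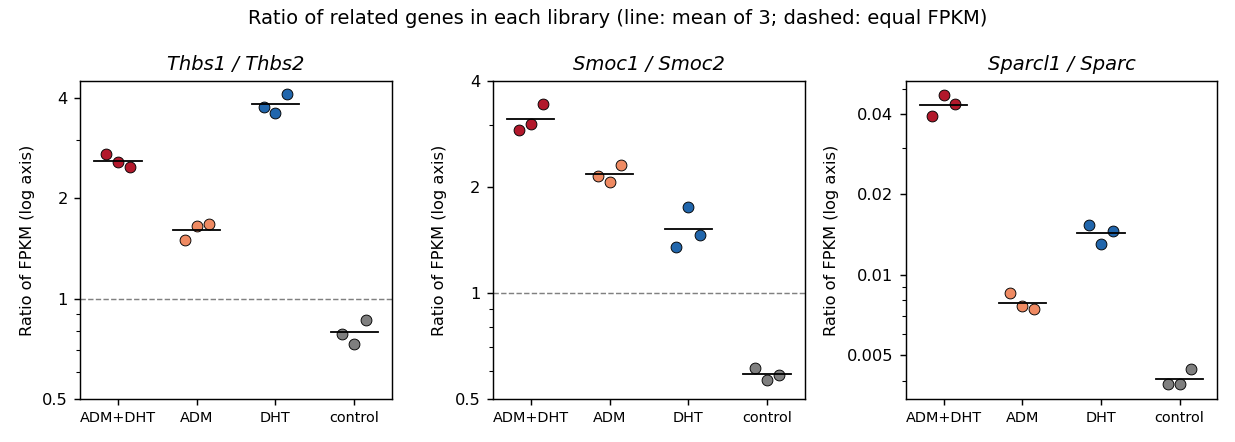
Ratio of the FPKM of related genes (y axis, log scale) in each library of ADM+DHT, ADM, DHT and control, with the group mean as a line and equal FPKM dashed. Control libraries lie below 1 for Thbs1 over Thbs2 (0.733 to 0.86) and for Smoc1 over Smoc2 (0.567 to 0.61), and the libraries of the other groups lie above 1.

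**Figure D3:**
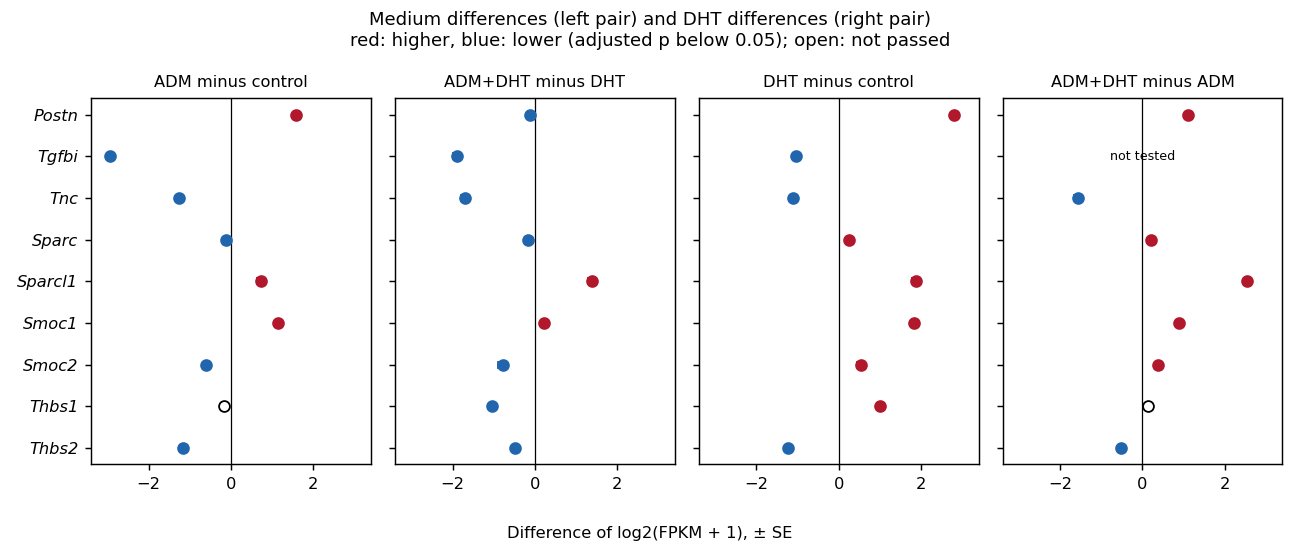
Difference of log2(FPKM + 1) ± SE (x axis) for each gene, in panels of ADM minus control, ADM+DHT minus DHT, DHT minus control and ADM+DHT minus ADM. Postn, Sparcl1 and Smoc1 lie right of 0 in both DHT panels and Thbs2 and Tnc left of 0 in all 4, while Postn lies at 1.58 in ADM minus control and near 0 (-0.11) in ADM+DHT minus DHT.

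Whether DHT acted alike in the media was asked by the interaction, the DHT difference in adipogenic medium minus that in regular medium, fitted on all 12 libraries. It passed for 7 of the 9 members, 3 up and 4 down, where 25.4% of 11152 genes tested passed (12.5% up and 12.9% down). Postn had the largest, at -1.69 ± 0.043 (adjusted p = 5.75e-10), its DHT rise being smaller in adipogenic medium. Smoc1 (-0.93 ± 0.062, adjusted p = 9.99e-07) and Thbs1 (-0.87 ± 0.107, adjusted p = 0.000109) had the same sign, while the DHT rise of Sparcl1 was larger in adipogenic medium (0.66 ± 0.113, adjusted p = 0.00114). The fall of Thbs2 was smaller there (0.70 ± 0.061, adjusted p = 7.96e-06) and that of Tnc larger (-0.45 ± 0.113, adjusted p = 0.0127), the value for Tnc reaching -1.38 with 0.1 added to FPKM. Tgfbi had 1.04 ± 0.135 (adjusted p = 0.000168), with both adipogenic groups under 1 FPKM. Sparc (-0.05 ± 0.048, adjusted p = 0.528) and Smoc2 (-0.17 ± 0.131, adjusted p = 0.388) did not pass, and Smoc2 passed without DHT replicate 2 (-0.29, adjusted p = 0.0354).

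**Figure D4:**
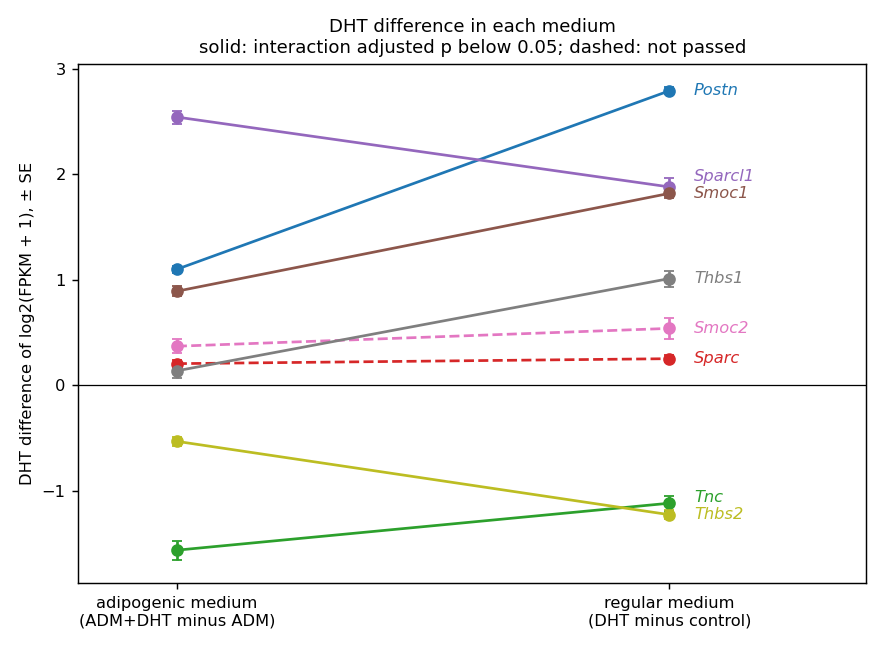
DHT difference of log2(FPKM + 1) ± SE (y axis) in adipogenic medium at the left and regular medium at the right, 1 line per gene, solid where the interaction passed; Tgfbi is not drawn because it was not tested between ADM+DHT and ADM. Postn lies at 1.10 in adipogenic and 2.79 in regular medium, and Sparcl1 at 2.54 in adipogenic and 1.88 in regular medium.

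Across the 12 libraries, which fall into 4 groups, the members formed patterns that are described by Pearson's r of log2 values without a test. Smoc1 was the gene most like Postn of 7689 searched (r = 0.990), followed by Crispld2 and Trdn (r = 0.989 and 0.978). Trdn, the gene of triadin, a calcium-release protein of muscle, averaged 52.4 FPKM in ADM+DHT, 9.94 in ADM, 34.7 in DHT and 2.21 in control. For Sparcl1 the nearest were Rgs2, Msrb1 and Tpd52l1 (r = 0.993, 0.992 and 0.992), and for Thbs2 they were Dpt, Pfkl and Iigp1 (r = 0.992, 0.989 and 0.986). Dpt, which encodes the matrix protein dermatopontin, averaged 1.47 FPKM in ADM+DHT, 3.42 in ADM, 3.46 in DHT and 31.1 in control. Thbs1 was nearest to Col11a1 (r = 0.966), Smoc2 to Plekhg5 (0.963), Sparc to Gas1 (0.970), Tnc to Hspa9 (0.989) and Tgfbi to Eif3c (0.997). Among the members, Postn correlated negatively with Thbs2 (r = -0.93), and Sparc, Smoc2 and Thbs1 positively with each other (r = 0.876 to 0.896).

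Other matricellular genes, from a list of 17 with 13 in the tables, were counted over the same comparisons. Over all genes tested, 33.5% changed in ADM+DHT against ADM (median 0.01), 26.9% in DHT against control (-0.01), 61.6% in ADM against control (-0.03) and 50.0% in ADM+DHT against DHT (-0.02). In ADM+DHT against ADM, 8 of 11 rose and 2 fell, with a median of 0.34. The highest rises were in the CCN genes Ccn2 (connective tissue growth factor, listed as Ctgf) at 2.07 and Ccn5 (listed as Wisp2) at 1.59. The falls were in Comp (-0.36) and Fstl1 (-0.35). Comp was low, with means of 0.809 FPKM in ADM+DHT and 1.32 in ADM, while Fstl1 averaged 415 and 528. In DHT against control 5 of 12 rose and 3 fell (median 0.14), with Ccn2 at 1.09 and Ccn5 at 0.94, and with Spp1, the gene of osteopontin, at -1.36 and Spock3 at -0.59. In ADM against control 3 rose and 8 fell of 12 (median -0.82), led by Tnxb (1.35) and Fstl1 (1.10) upward and by Ccn3 (listed as Nov, -2.11) and Tnn (-1.58) downward. In ADM+DHT against DHT 5 rose and 4 fell of 12 (median 0.01), with Tnxb at 1.29 and Tnn, a relative of Tnc, at -2.12.

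Receptors and matrix partners of these proteins were counted the same way. Of the receptors, 10 of 14 rose and 1 fell in ADM+DHT against ADM, where 33.5% of all genes changed, and 3 rose and 2 fell of 13 in DHT against control, where 26.9% did. In ADM against control 5 rose and 8 fell of 14, beside 61.6% of all genes, and in ADM+DHT against DHT 7 rose and 5 fell of 15, beside 50.0%. The receptor medians were 0.19, -0.01, -0.31 and 0.06 in these comparisons, in that order. Cd36, a thrombospondin receptor that also carries fatty acids into fat cells, averaged 39.6 FPKM in ADM+DHT, 138 in ADM, 0.39 in DHT and 0.242 in control. It rose by 6.81 in ADM against control and was the receptor that fell in ADM+DHT against ADM (-1.78). Egfr rose in all 4 comparisons, by 2.17 in ADM against control and 1.26 in DHT against control.

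Of the TGF-beta list, which holds ligands, receptors, latency proteins and SMAD genes, 10 of 16 rose and 1 fell in ADM+DHT against ADM (33.5% of all genes changed) and 8 rose and 1 fell in DHT against control (26.9% of all genes). The list's medians were 0.37 and 0.20, where all genes had 0.01 and -0.01. In ADM against control 3 rose and 9 fell (61.6% of all genes, list median -0.28), and in ADM+DHT against DHT 4 rose and 6 fell (50.0% of all genes, list median -0.12). Tgfbr2, a TGF-beta receptor gene, fell by 0.21 in ADM+DHT against ADM and by 0.53 in DHT against control. The matrix list holds ligands and also the enzyme genes Lox and Bmp1. Of its genes, 8 of 12 rose and the other 4 did not pass in ADM+DHT against ADM (33.5% of all genes changed, list median 0.31). Lox (0.787) and Bmp1 (0.525) were among those that rose. In DHT against control 6 rose and 2 fell (26.9% of all genes, list median 0.10). In ADM against control 5 rose and 7 fell (61.6% of all genes, list median -0.48), and in ADM+DHT against DHT 5 rose and 6 fell (50.0% of all genes, list median -0.07). Col4a1, a basement membrane collagen, rose by 1.91 and the fibronectin gene Fn1 fell by 2.73 in ADM against control, while Fn1 rose by 1.12 in ADM+DHT against ADM.

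In the authors' deposited tables, 8 of the 9 members had a q-value below 0.05 in DHT against control and 7 in ADM+DHT against ADM. In ADM against control 7 did, and in ADM+DHT against DHT all 9 did. The share of all genes below that q-value was not counted here. By limma above, 26.9%, 33.5%, 61.6% and 50.0% of all genes tested changed in these comparisons, in that order. The authors' deposited tables gave q-values of 0.0664 for Smoc2 in DHT against control and 0.0721 for Sparc in ADM against control, which were the calls that differed. In GENCODE release M21 the start and end of 8 of the 9 genes were the same as in the tables. Genes annotated on the opposite strand overlap Tnc, Thbs1, Smoc2 and Sparcl1, and the microRNA gene Mir3067 lies within Smoc1. The library kit marks strand, and whether it was used in quantification is not given in the sources used here.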

How the data were processed

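Per the labels' protocols, poly(A)-selected, strand-marking paired-end libraries of M2-10B4 cells were sequenced. HISAT2, StringTie, cutadapt, FastQC and the GRCm38 build are listed, without versions, in the submitters' processing notes. Per the file headers, the 4 deposited tables give FPKM per library, each for 2 of the groups. Their deposited group columns equal the mean log2 of FPKM + 1, and their log2 fold change and fold ratio follow from these. No header or label names the test behind the authors' p-values and q-values. Every gene averaged at least 0.5 FPKM in a group of its table, as checked on the values. The tables were joined by gene identifier, and library values were the same in all of them (largest difference 0). Each table held 1 emptied line, not used here. ADM+DHT replicate 2 was identified by its treatment label, because its title is spelled differently.

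The tables hold no counts. Among 150 low genes per library pair, at most 3.3% shared a ratio within 1%, so whole reads were not recovered and precision rests on the 3 replicates. From the FPKM, log2(FPKM + 1) was tested with limma 3.58.1 (R 4.3.3) with an intensity trend, two-sided, on the 6 libraries of a pair (4 residual degrees of freedom) or all 12 for the interaction (8), over genes averaging at least 1 FPKM in a compared group, with Benjamini-Hochberg adjustment over all genes tested. "Rose", "fell" and "changed" mean an adjusted p below 0.05. Differences are log2 ± SE and understate the fold of low genes. Nearest genes needed a mean of 5 FPKM in a group, and up to 2 rises and 2 falls were named per list and comparison. Members and lists were chosen with earlier results of these data known. Alternatives were another pseudocount, filter, scaling, variance model and model over all 12 libraries, a replicate block and leaving out each library. Figures were drawn with matplotlib 3.10.9.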

Additional observations from a re-analysis of the deposited data

Results flagged for a closer look

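For 7 members the DHT difference in adipogenic medium minus that in regular medium passed the test of that difference (limma, adjusted p below 0.05). The values were -1.69 for Postn, -0.93 for Smoc1, -0.87 for Thbs1 and -0.45 for Tnc, and 1.04 for Tgfbi, 0.70 for Thbs2 and 0.66 for Sparcl1, all on the log2 scale. Tgfbi averaged under 1 FPKM in both adipogenic groups. Among all genes tested 25.4% passed. The share of mitochondrially encoded FPKM and the adipocyte marker sum moved with the groups, and their part in these values was not tested. Rescaling to genes not mitochondrially encoded left 7 members past the threshold, 3 up and 4 down.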

How the results depend on the processing

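Of 972 recomputed member differences over all planned settings, 956 kept their direction and their side of the threshold, 9 were weaker, 4 became past the threshold and 3 changed sign. Under quantile normalization Postn in ADM+DHT minus DHT had 0.034 in place of -0.113. For Thbs1 in ADM+DHT minus control, which did not pass, rescaling to genes not mitochondrially encoded gave 0.013, and leaving out each library gave -0.071 to 0.012. Sparc in ADM+DHT minus control, which did not pass (adjusted p = 0.0814), passed under that rescaling (adjusted p = 0.00512) and without control replicate 3 (0.0465). The cause was not tested. Called members stayed between 7 and 9 in ADM against control and at 9 in DHT against control. They stayed at 8 or 9 in ADM+DHT against DHT and at 6 or 7 in ADM+DHT against ADM. The 6 came with the filter of at least 5 FPKM, where 7 members were tested and 2936 of 7088 genes were called. Counts over all genes stayed within 1.5 times the count reported in every comparison and setting. The replicate numbers did not pair the libraries: deviations of same-numbered libraries correlated at -0.133 to 0.135, and 3 of 12 correlated best with their own number. With the replicate block, the call for Postn in ADM+DHT minus DHT ended (adjusted p = 0.05004), and 2542 genes were called in DHT against control, against 2907 without it. With no counts, precision at low levels such as those of Tnc and Tgfbi cannot be given.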
